A study of Homo sapiens with 12 samples.

Results

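Cells that contained exon 8-containing TAF5 were compared with cells that lacked it or had little of it, using all 12 libraries of the series. TAF5 is a subunit of TFIID, the complex that recognises core promoters and starts assembly of the RNA polymerase II machinery. Sides were set by the labelled groups alone. On one side stood 6 libraries of 2 groups: siNT, which had a non-targeting siRNA and kept its own TAF5, and FL, in which TAF5 was knocked down and an siRNA-resistant TAF5-FL, the full-length protein, was expressed. On the other side stood 6 libraries: siTAF5, with the TAF5 siRNA alone, and TAF5-ΔE8, here ΔE8, with the same siRNA and a resistant TAF5 without exon 8. Each group had 3 libraries of poly(A) RNA. The cells were HEK293 Flp-In, a human embryonic kidney line in which a transgene can be placed at 1 defined site, and all 12 samples were labelled as given siRNA and doxycycline, the drug that switches the transgene on. Doxycycline started 24 h after transfection and lasted 48 h. Whether the siNT and siTAF5 cells were of a line that carried a transgene is not stated in the labels, and a single TAF5 siRNA was used.

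The second factor was the transgene, present in FL and ΔE8 and absent from siNT and siTAF5. The layout thus holds 2 pairs that share no library. Without a transgene, siTAF5 was compared with siNT, groups that differ in siRNA and in the amount of TAF5. With a transgene, ΔE8 was compared with FL, groups that share the siRNA but differ in exon 8 and in the labelled doxycycline dose, so dose and exon 8 cannot be told apart there. The main effect is the mean of the log2 changes of both pairs, without minus with, and a positive value means a higher level where exon 8-containing TAF5 was lacking. The interaction is the change in ΔE8 against FL minus that in siTAF5 against siNT. No label says that replicates came from separate cultures, so the spread behind the p-values is that of these samples only and may be technical.

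TFIID is built from the TATA-binding protein TBP and the TBP-associated factors (TAFs). TAF5 has WD40 repeats in its C-terminal part and forms the TFIID core together with TAF4, TAF6, TAF9 and TAF12. Exon 8 is printed first because its absence defines the ΔE8 protein. In the GENCODE release 29 transcript with 11 exons it lies at chr10:103385326-103385490 on the + strand of GRCh38 and has 165 bases, all coding. Skipping it removes 55 codons and keeps the reading frame, and touches codons 555 to 610 of 800. Capitals mark exon 8, and lower case marks 15 bases of each neighbouring exon.
TAF5 with exon 8: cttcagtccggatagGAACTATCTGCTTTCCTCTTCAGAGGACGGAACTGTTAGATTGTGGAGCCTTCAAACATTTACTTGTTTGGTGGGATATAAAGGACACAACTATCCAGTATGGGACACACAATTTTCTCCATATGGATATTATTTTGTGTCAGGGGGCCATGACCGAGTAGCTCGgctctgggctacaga
TAF5 without exon 8: cttcagtccggataggctctgggctacaga

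TAF5 itself (chromosome 10, 103367966 to 103389065 of hg38, as all positions of genes below) was read first. It measured 39.2, 40.5 and 40.2 CPM in siNT, 102.6, 105.6 and 107.4 in FL, 6.13, 7.35 and 6.68 in siTAF5 and 87.6, 87.5 and 88.9 in ΔE8, where CPM is the count scaled to a common library size. The siTAF5 libraries were the lowest and the ΔE8 libraries lay above siNT, so total TAF5 RNA did not order the sides. Without a transgene its log2 change was -2.56, and with one it was -0.26. Exon 8 is 5.05% of the transcript and counts per gene do not resolve it, so these values check the knockdown and the transgene but not which group lacked the exon. Depth was 41.8 to 62.5 M estimated counts per library. In a principal component analysis of log2 CPM over genes averaging above 2, 58.2% of the variance fell on component 1 and 29.5% on component 2. On component 1 siNT lay at -24.8 to -22.33, siTAF5 at -1.59 to 0.88, FL at 4.3 to 8.93 and ΔE8 at 17.03 to 19.07. Libraries with a transgene thus lay higher on component 1, and the sides overlapped. On component 2 siNT lay at 2 to 2.68 and FL at 14.3 to 16.31, against -14.93 to -14.41 for siTAF5 and -3.02 to -2.27 for ΔE8, so the sides did not overlap there.

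**Figure D1:**
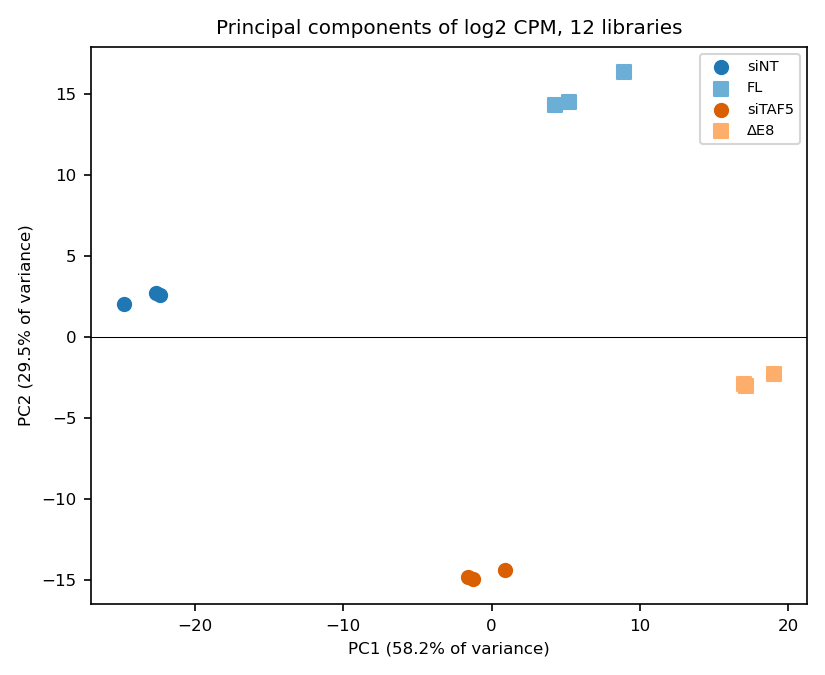
Principal components 1 and 2 of log2 CPM for the 12 libraries, with their share of the variance on the axes. All 6 libraries with exon 8-containing TAF5 (siNT and FL) have positive values on component 2 and all 6 without it (siTAF5 and ΔE8) negative ones. On component 1 the sides overlap, siTAF5 lying between siNT and FL.

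Lack of exon 8-containing TAF5 went with many small changes, most measured histone genes and NEAT1 being higher and most measured ribosomal protein, small nucleolar RNA host and amino acid response genes lower. Of 19424 genes tested, 10570 (54.4%) were called by the main effect (edgeR quasi-likelihood test, Benjamini-Hochberg adjusted p under 0.05). Of these, 5175 (26.6% of genes tested) were higher and 5395 (27.8%) lower. The median size of a called change was 0.217 on the log2 scale. Changes of at least 2-fold were seen in 189 higher and 109 lower genes, and of at least 1.5-fold in 691 and 534.

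Since a main effect can come from 1 pair, calls were also counted in both. The pair without a transgene, siTAF5 against siNT, called 49.7% of genes, and the pair with one, ΔE8 against FL, 37%. Both pairs called 5440 genes in the same direction (28%), 2553 higher (13.1%) and 2887 lower (14.9%). They called 149 genes in opposite directions (0.767%). Shared calls of one direction made up 56.4% of the calls in siTAF5 against siNT and 75.8% of those in ΔE8 against FL. Of the main effect calls, 3169 were called in siTAF5 against siNT alone, 1229 in ΔE8 against FL alone and 717 in neither.

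The sizes of change in both pairs went together. Over 12315 genes whose mean log2 CPM was 2 or more, Pearson's r was 0.80 and Spearman's rho 0.78. These points are genes, which are not independent, and both pairs share the scaling and the estimate of the spread. Over all genes tested r was 0.52. The SD of the log2 change over the 12315 genes was 0.262 without a transgene and 0.202 with one. For 3120 genes (16.1%) the 6 libraries without exon 8-containing TAF5 did not overlap the 6 with it, 1586 being above (8.17%) and 1534 below (7.9%). Long noncoding RNAs were called higher in 23.9% and lower in 9.4% of 3306, and protein-coding genes in 28.7% and 33.5% of 14637. The transgene factor called 58.8% of genes, among them 7425 of the main effect calls.

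**Figure D2:**
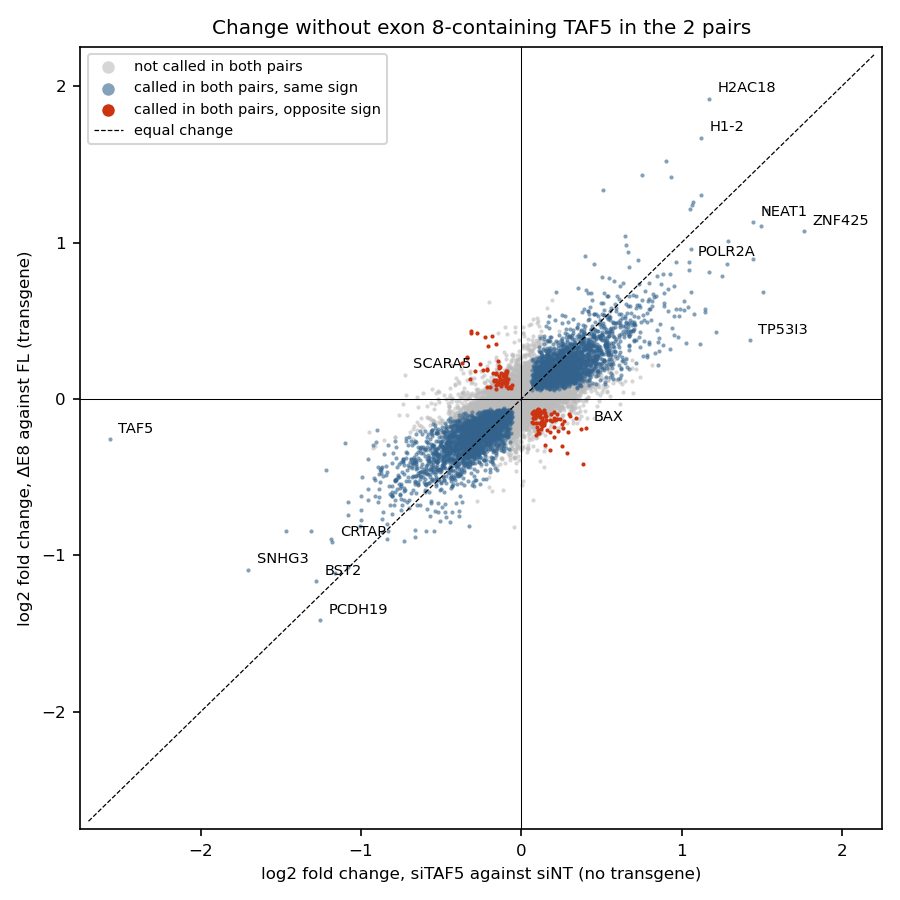
Log2 fold change of each gene with a mean log2 CPM of 2 or more in siTAF5 against siNT (x axis) and in ΔE8 against FL (y axis); blue points were called in both pairs with the same sign and red points with opposite signs, and the dashed line marks equal change. Over all 12315 genes of that level r was 0.80. Blue points share a sign by the way they were selected, and TAF5 lies far to the left of the dashed line.

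Among the genes that fell most, SNHG3, a host gene of small nucleolar RNAs (chromosome 1, 28505980 to 28510892), measured 65.8, 65.5 and 65.4 CPM in siNT, 40.4, 39.9 and 40.6 in FL, 18.7, 21.6 and 20 in siTAF5 and 17.6, 19.4 and 20 in ΔE8. Both groups without exon 8-containing TAF5 sat at one low level, below every library with it. SNHG3 was 2.63-fold lower by the main effect (log2 -1.40, SE 0.032, edgeR adjusted p = 3.09e-17). PCDH19, a cell adhesion protein of the protocadherin family (chromosome X, 100291644 to 100410273), measured 28.3, 29.5 and 29.5 CPM in siNT, 20.9, 22 and 21.3 in FL, 11.8, 11.7 and 13 in siTAF5 and 7.43, 9.12 and 7.41 in ΔE8. No library of one side reached the other, and it was 2.52-fold lower (edgeR adjusted p = 5.56e-15). CRTAP, which takes part in collagen prolyl hydroxylation (chromosome 3, 33114014 to 33147773), measured 260.6, 245.5 and 246.2 CPM in siNT, 179.9, 171.5 and 167.4 in FL, 110.2, 113.5 and 108.0 in siTAF5 and 92.9, 93.9 and 88.5 in ΔE8. Its sides did not overlap either, and it was 2.07-fold lower (edgeR adjusted p = 1.34e-17).

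ANXA1, a calcium-dependent phospholipid-binding annexin (chromosome 9, 73151865 to 73170393), measured 10.4, 11.8 and 11.6 CPM in siNT, 13.1, 12.4 and 14.9 in FL, 5.62, 5.3 and 5.09 in siTAF5 and 6.6, 6.09 and 6.46 in ΔE8. Its log2 changes were nearly equal, -1.08 without and -1.07 with a transgene (interaction log2 0.009, SE 0.108, edgeR adjusted p = 0.974). GLYCTK, glycerate kinase, stood at 5.34 ± 0.22 CPM in siNT (mean ± SD over n = 3 libraries, as in later values of this form) and 5.64 ± 0.176 in FL, against 2.4 ± 0.309 in siTAF5 and 2.61 ± 0.302 in ΔE8. That is one level on each side, 2.2-fold apart. BST2, an interferon-inducible membrane protein that tethers virus particles, was 2.33-fold lower by the main effect, but its FL and siTAF5 libraries overlapped, and its log2 change for the transgene factor was -1.37. RAPGEF3, an exchange factor for small GTPases, was 2.23-fold lower, CALML4, a calmodulin-like protein, 2.11-fold and RAB3A, a GTPase of secretory vesicles, 2.06-fold. By the rule that chose them, these genes had no overlap within either pair.

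The genes that rose most included 6 histone genes. H1-2, a linker histone (chromosome 6, 26055740 to 26056470), measured 26.2, 25 and 25.7 CPM in siNT, 13.1, 11.5 and 11.5 in FL, 56.4, 55 and 55.8 in siTAF5 and 39.5, 37.8 and 38.4 in ΔE8. FL was lowest, and all 6 libraries without exon 8-containing TAF5 lay above the others. H1-2 was 2.63-fold higher (log2 1.40, SE 0.03, edgeR adjusted p = 1.27e-17). H2AC18, an H2A gene (chromosome 1, 149842218 to 149842750), was 2.92-fold higher, H2BC11 2.32-fold, H2BC12 2.32-fold and H2AC19 2.26-fold, while H4C8 rose by 1.17 on the log2 scale. H2AC18 and H2AC19 are near-identical copies, so the split of reads between them is uncertain. For H2AC19 the siNT and ΔE8 libraries overlapped.

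ZNF425, a zinc finger gene (chromosome 7, 149102784 to 149126324), measured 3.16, 3.49 and 3.08 CPM in siNT, 6.56, 7.19 and 6.89 in FL, 11.4, 10.2 and 11.4 in siTAF5 and 15.1, 13.9 and 14.3 in ΔE8. Its 4 groups stood in separate steps, the groups without exon 8-containing TAF5 on top, and the main effect was 2.67-fold (edgeR adjusted p = 1.12e-14). NEAT1, the noncoding RNA on which nuclear paraspeckles form (chromosome 11, 65422774 to 65445540), measured 44.3, 52.5 and 51.5 CPM in siNT, 52.7, 57.9 and 59.2 in FL, 127.8, 135.1 and 140.9 in siTAF5 and 109.2, 132.0 and 129.9 in ΔE8. It was 2.44-fold higher (edgeR adjusted p = 1.82e-14), with both levels on a side close together. TLCD1, a membrane protein gene, was 2.58-fold higher and PSMG3-AS1 2.46-fold. PSMG3-AS1 is antisense to PSMG3, and whether the counting used strand is not stated, so reads of both partners may be mixed.

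**Figure D3:**
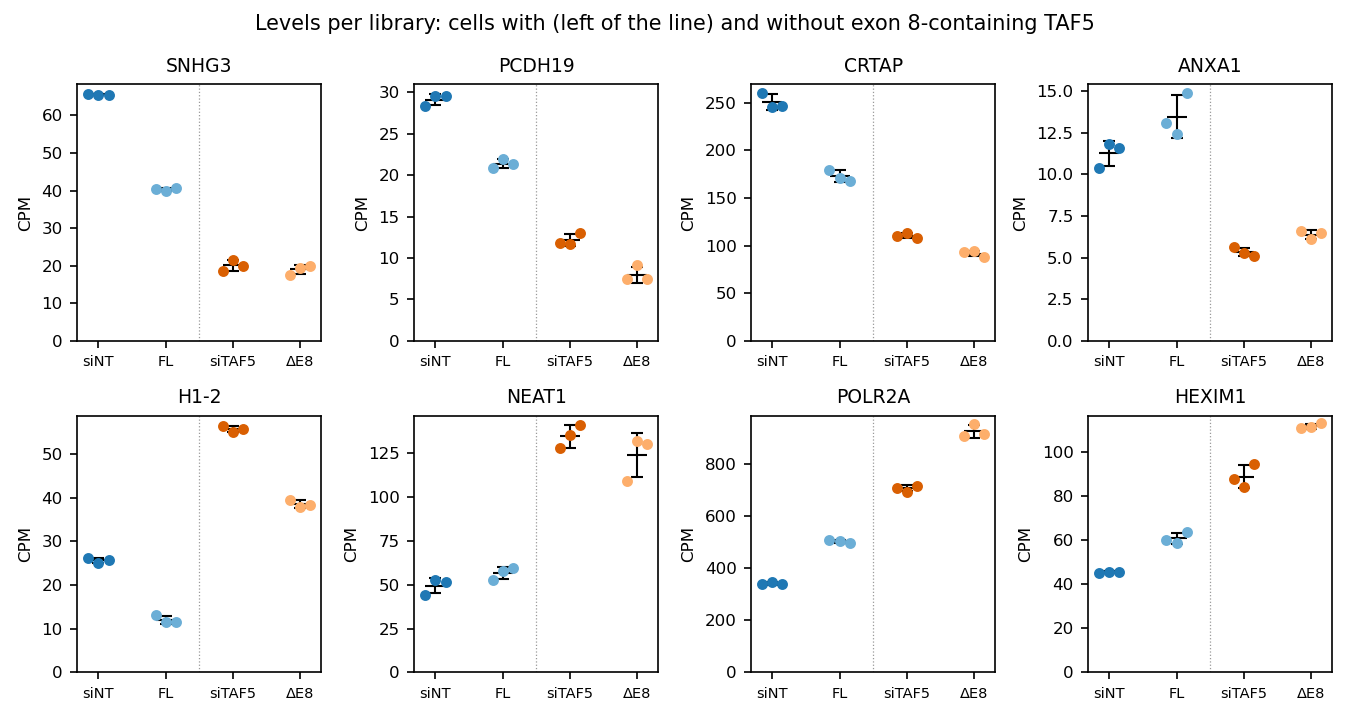
CPM in each library (points, linear axes from 0) with mean and SD of 3 libraries (black) for 8 genes; groups with exon 8-containing TAF5 stand left of the dotted line. SNHG3, PCDH19, CRTAP and ANXA1 are lower in all 6 libraries on the right, and H1-2, NEAT1, POLR2A and HEXIM1 higher.

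Lists of genes are described next by how many measured members were called and by the median log2 change of the main effect, beside -0.0029 over all genes tested. Their counts are to be read against the 26.6% higher and 27.8% lower over all genes tested. With library totals as scaling every list median was 0.03 to 0.031 higher, and the median over all genes 0.0271. TFIID subunits other than TAF5 had 9 of 15 higher and 1 lower (median 0.093). TAF12, a histone-fold TAF (chromosome 1, 28587829 to 28648291), measured 17.7, 16.8 and 16.8 CPM in siNT, 21, 20.1 and 21.8 in FL, 33, 31.6 and 32.1 in siTAF5 and 33.7, 33.1 and 35.7 in ΔE8. Every library without exon 8-containing TAF5 lay above every library with it, and TAF12 rose 1.75-fold (SE of log2 0.03, edgeR adjusted p = 2.69e-14). TAF4, its histone-fold partner, measured 48.4, 48.9 and 47.6 CPM in siNT, 49.6, 48.9 and 49.8 in FL, 59.3, 57.9 and 58.3 in siTAF5 and 61.3, 61.1 and 64.5 in ΔE8. It rose 1.24-fold and TAF6 1.17-fold, both without overlap between the sides. TAF3 rose by 0.24 on the log2 scale. TAF9B rose 1.19-fold, TAF11 1.16-fold, TAF13 1.12-fold, TAF1, the largest subunit, 1.07-fold and TAF2 1.06-fold. Both pairs called 6 of these subunits higher. TAF13 and TAF2 were called in siTAF5 against siNT alone and TAF1 in ΔE8 against FL alone. For TAF13 the log2 change in ΔE8 against FL was 0.017.

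TAF8, which brings TAF10 into the nucleus, was the one subunit that fell. It measured 51.2, 55.3 and 52.2 CPM in siNT, 47.7, 48.2 and 48.8 in FL, 40.2, 41 and 41 in siTAF5 and 41.9, 39.8 and 37.5 in ΔE8, with no overlap between the sides, and fell by 0.33 on the log2 scale (edgeR adjusted p = 3.49e-09). TBP (log2 0.037), TAF4B (0.051), TAF7 (0.005), TAF9 (0.042) and TAF10 (0.028) did not pass the test; with library totals as scaling TBP, TAF4B and TAF9 were called higher, and TAF9 was without FL replicate 3. SAGA, a coactivator that shares several TAFs with TFIID, had 3 of 16 higher and 6 lower (median -0.047), with TADA1 1.2-fold lower and SUPT7L 1.11-fold higher.

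RNA polymerase II and general factor genes had 13 of 29 higher and 3 lower (median 0.045), mostly from the pair without a transgene. In siTAF5 against siNT 13 were higher and 3 lower (median 0.085), and in ΔE8 against FL 4 and 3 (median 0.018). Both pairs called 4 of them higher and 1 lower. POLR2A, the catalytic subunit (chromosome 17, 7484366 to 7514616), measured 338.0, 348.1 and 341.4 CPM in siNT, 509.6, 504.8 and 497.7 in FL, 709.5, 694.3 and 717.1 in siTAF5 and 908.5, 954.5 and 914.9 in ΔE8. All 4 groups were apart, and the main effect of 1.95-fold had the smallest adjusted p among the genes named here (SE of log2 0.017, edgeR adjusted p = 6.68e-19). GTF2A1, a TFIIA subunit, rose 1.41-fold and the polymerase subunit POLR2L 1.32-fold. Mediator, the coactivator that links activators to the polymerase, had 16 of 31 higher and 5 lower (median 0.064), with MED29 1.41-fold, MED20 1.36-fold and the kinase CDK19 1.32-fold higher. Pausing and elongation factors had 11 of 26 higher and 4 lower (median 0.044). HEXIM1, the inhibitor of the elongation kinase P-TEFb (chromosome 17, 45148475 to 45152099), measured 45.1, 45.7 and 45.7 CPM in siNT, 60, 58.6 and 63.6 in FL, 87.6, 84 and 94.6 in siTAF5 and 110.6, 111.4 and 112.8 in ΔE8. It rose 1.89-fold without overlap between the sides (edgeR adjusted p = 7.91e-16). LARP7, a protein of the same inhibitory particle, measured 44.9, 49.1 and 49.1 CPM in siNT, 51.4, 51.3 and 55 in FL, 36.5, 35.6 and 34.5 in siTAF5 and 41.1, 38.6 and 40 in ΔE8 and fell 1.33-fold, while MEPCE, which caps the RNA of that particle, rose 1.23-fold.

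Replication-dependent histone genes, whose transcripts mostly end in a stem-loop and not in the poly(A) tail that the libraries were selected for, had 20 of 25 higher and 0 lower (median 0.923). Of 29 listed, 4 did not pass the filter on low counts. The measured members summed to 290.5 to 304.9 CPM in siNT and 162.0 to 169.5 in FL, against 544.3 to 552.1 in siTAF5 and 403.5 to 415.3 in ΔE8. Both pairs called 16 of them higher. H2AC6 rose 2.19-fold and H4C15, a near-identical copy of H4C14, 2.13-fold.

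Targets of p53 had 17 of 26 higher and 2 lower (median 0.225). CDKN1A, the cell cycle inhibitor p21, measured 96.3, 90.3 and 92.2 CPM in siNT, 94.9, 90.6 and 93.6 in FL, 139.1, 135.2 and 132.7 in siTAF5 and 119.9, 124.9 and 124.7 in ΔE8. FL stood at the siNT level and both groups without exon 8-containing TAF5 above it, with a main effect of 1.39-fold (edgeR adjusted p = 3.64e-13). TP53INP1, a stress-induced p53 cofactor, rose 1.69-fold, the translesion polymerase POLH 1.53-fold and the damage sensor XPC 1.37-fold. Apoptosis regulators had 8 of 27 higher and 10 lower (median -0.017), not far from the shares over all genes. The BH3-only gene PMAIP1, also a p53 target, fell 1.45-fold and BCL2L13 rose 1.3-fold.

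Cytosolic ribosomal protein genes had 4 of 76 higher and 67 lower (median -0.22), and both pairs called 66 lower. RPS25, a small-subunit protein, measured 460.9, 449.0 and 453.7 CPM in siNT, 360.6, 369.8 and 356.3 in FL, 282.4, 276.8 and 279.6 in siTAF5 and 259.2, 249.4 and 247.9 in ΔE8. The sides did not overlap, and it fell 1.53-fold (edgeR adjusted p = 4.26e-16). RPSA fell 1.47-fold and RPS23 1.42-fold, though such genes can share reads with their pseudogenes. Translation factors and related genes of the TOP class, whose transcripts start with a run of pyrimidines, had 0 of 18 higher and 17 lower (median -0.234), among them the elongation factor subunit EEF1D (1.55-fold), HNRNPA1, also a splicing factor (1.35-fold), and the importin IPO7 (1.33-fold). Host genes of small nucleolar RNAs had 2 of 16 higher and 13 lower (median -0.428). Besides SNHG3, SNHG29 fell 1.62-fold, SNHG32 1.59-fold and SNHG16 1.5-fold.

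Genes of the ATF4 and amino acid response had 3 of 30 higher and 25 lower (median -0.243). ATF4, the transcription factor of this response (chromosome 22, 39519695 to 39522683), measured 682.0, 657.7 and 672.7 CPM in siNT, 696.6, 643.1 and 657.0 in FL, 463.2, 457.3 and 440.7 in siTAF5 and 498.8, 493.4 and 487.1 in ΔE8. Both groups with exon 8-containing TAF5 overlapped, and both groups without it lay lower, siTAF5 below ΔE8. The main effect was 1.41-fold (edgeR adjusted p = 5.80e-14), and the interaction was called (log2 0.13, edgeR adjusted p = 0.0323). SLC7A11, the cystine transporter, measured 29.4, 32.4 and 31.5 CPM in siNT, 34.1, 36.5 and 33.7 in FL, 16.8, 17.1 and 17.2 in siTAF5 and 20.2, 19.7 and 17.5 in ΔE8. It fell 1.82-fold, asparagine synthetase ASNS 1.58-fold and the amino acid transporter SLC7A5 1.36-fold.

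Splicing factors had 5 of 32 higher and 20 lower (median -0.083), with HNRNPA1 1.35-fold, HNRNPA3 1.26-fold and PRPF8 1.23-fold lower. Ribosome biogenesis genes had 4 of 30 higher and 18 lower (median -0.083), with the nucleolar GTPase GNL3 1.33-fold lower. In the G1/S and DNA replication list 6 of 30 higher and 19 lower (median -0.082) were counted. The transcription factor E2F1 fell 1.37-fold, and RRM2, a ribonucleotide reductase subunit, rose 1.42-fold. For G2/M and mitosis the count was 4 of 27 higher and 17 lower (median -0.114), with the kinase AURKB 1.29-fold lower and NUSAP1 1.28-fold higher. Immediate early genes had 15 of 28 higher and 5 lower (median 0.151), among them the AP-1 genes JUNB (1.59-fold), JUND (1.54-fold) and JUN (1.29-fold).

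Heat shock genes had 6 of 16 higher and 7 lower (median -0.043). HSPA1B, an inducible HSP70 gene whose reads are hard to tell from those of HSPA1A, stood at 2511 ± 21.6 CPM in siNT and 2474 ± 105.9 in FL, against 3591 ± 16.8 in siTAF5 and 3590 ± 72.1 in ΔE8. It rose 1.44-fold, while the mitochondrial chaperone HSPD1 fell 1.22-fold. Unfolded protein response genes had 8 of 18 higher and 7 lower (median 0.028), cholesterol synthesis genes 8 of 22 higher and 7 lower (median 0.008) and glycolysis and hypoxia genes 9 of 29 higher and 13 lower (median -0.019). The glycolysis and hypoxia median was -0.061 without ΔE8 replicate 1. The cholesterol list was called at near the shares over all genes, and its enzyme SQLE fell 1.45-fold. Lysosome and autophagy genes had 12 of 23 higher and 8 lower (median 0.103), with the galactosidase GLA 1.47-fold and the autophagy receptor SQSTM1 1.45-fold higher. For SQSTM1 the sides overlapped, FL (221.7 to 226.6 CPM) standing above siTAF5 (211.4 to 218.8). Its log2 change for the transgene factor was 0.59. Nuclear-encoded oxidative phosphorylation genes had 23 of 48 higher and 13 lower (median 0.044). Mitochondrially encoded genes had 0 of 13 higher and 7 lower (median -0.111), with 0 called in ΔE8 against FL, and their sum ran from 9232 to 11345 CPM within siNT alone.

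Interferon-stimulated genes had 3 of 24 higher and 9 lower (median -0.168), with the signal transducer STAT2 1.3-fold higher. Without a transgene their median change was -0.215 and with one 0.024, and that of the main effect was -0.046 without FL replicate 1. Extracellular matrix and TGF-beta genes had 5 of 23 higher and 9 lower (median -0.034), among them SPARC, a matrix glycoprotein, 1.71-fold lower. However, SPARC was lower in FL (3.53 to 3.78 CPM) than in siTAF5 (4.12 to 4.34), and its log2 change for the transgene factor was -0.97. The transgene factor called 2 genes of this list higher and 20 lower (median -0.45). Neuronal genes had 5 of 18 higher and 6 lower (median -0.102), not far from the shares over all genes. Zinc finger genes of chromosome 19 had 12 of 40 higher and 7 lower (median 0.007), which averages unlike pairs. Without a transgene 15 were higher and 4 lower (median 0.116), and with one 2 and 6 (median -0.037). The interaction was called more negative for 9 of these genes and more positive for 0. Nuclear-retained noncoding RNAs had 3 of 5 higher and 0 lower (median 0.311), MALAT1 being 1.59-fold higher beside NEAT1. Embryonic kidney and epithelial markers had 0 of 10 higher and 8 lower (median -0.179). CDH1, the epithelial cadherin, fell 1.76-fold and the adhesion molecule EPCAM 1.29-fold, while the kidney markers PAX8 and CDH6 did not pass the filter. In bulk RNA, fewer cells with a gene and less RNA per cell cannot be told apart. Markers of other cells were scarce: 5 of 8 blood cell markers, PTPRC among them, did not pass the filter, and neither did 5 of 8 fibroblast markers. The remaining fibroblast markers summed to 19.1 to 19.8 CPM in siNT and to 10.3 to 12, 13 to 13.6 and 10.6 to 10.7 in FL, siTAF5 and ΔE8, with 0 of 3 higher and 2 lower (median -0.384). The remaining blood markers summed to 19 to 21, 17.8 to 18.8, 13.1 to 13.5 and 14.6 to 15.5 CPM in siNT, FL, siTAF5 and ΔE8, with 0 of 3 higher and 2 lower (median -0.342).

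**Figure D4:**
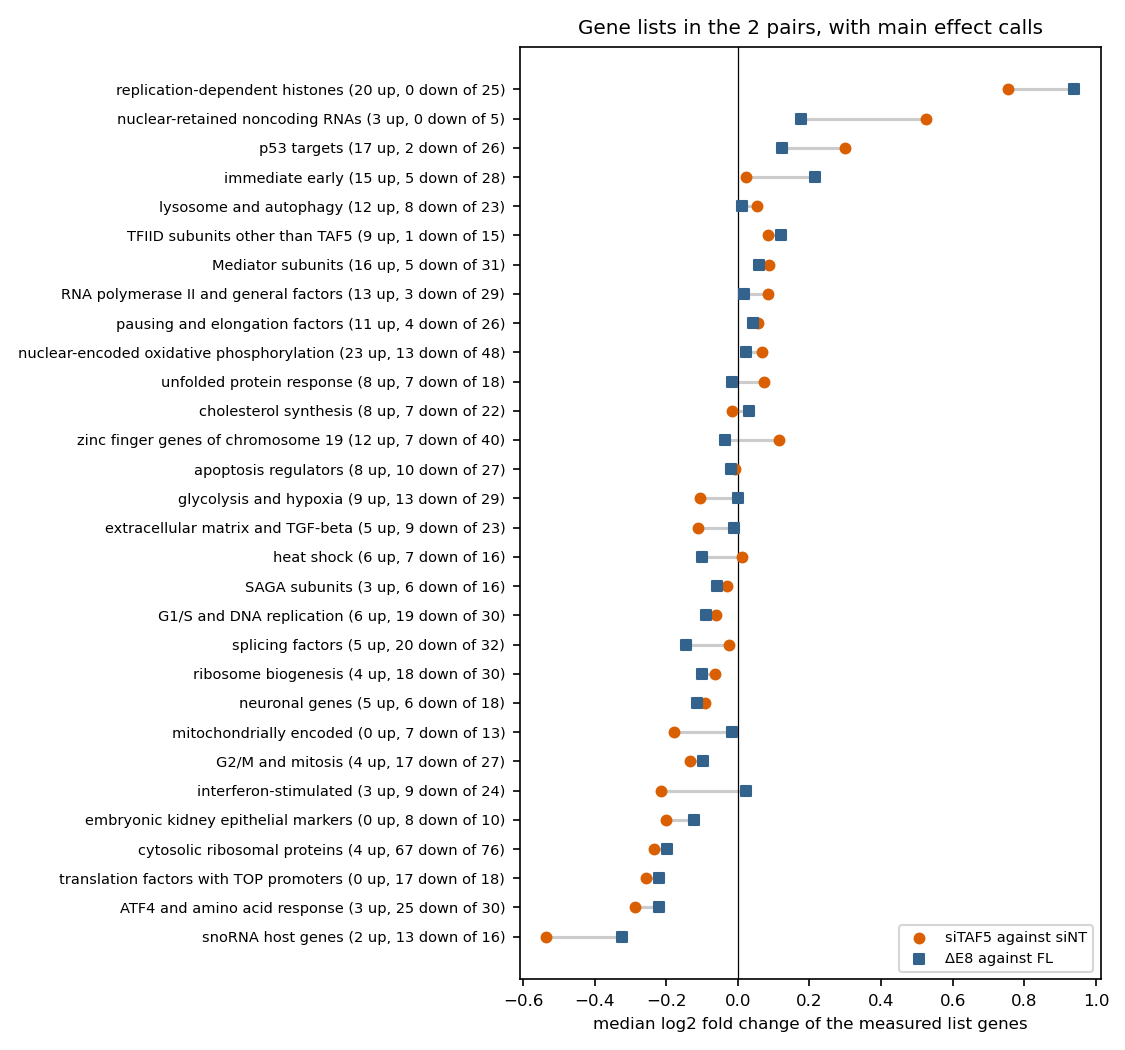
Median log2 fold change of the measured genes of each list with at least 5 of them, in siTAF5 against siNT (circles) and ΔE8 against FL (squares); labels give the genes called higher and lower by the main effect. Histone genes lie at 0.755 and 0.939 and small nucleolar RNA host genes at -0.535 and -0.324, on opposite sides of 0.

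The interaction asked whether a change differed between cells without and with a transgene. It was called for 2376 genes (12.2%), 1025 with a more positive change in ΔE8 against FL (5.28%) and 1351 with a more negative one (6.96%). Of the 5440 genes that changed the same way in both pairs, 855 had a called interaction, and the change was larger in siTAF5 against siNT for 755 of these and in ΔE8 against FL for 100. The split moved with single libraries and with the scaling. More positive changes were 43.1% of interaction calls, 39.4% with library totals alone as scaling and 58.3% without siTAF5 replicate 2. The count more negative was 868, 805 and 721 without siTAF5 replicate 1, 2 or 3, 883 without FL replicate 2, and 859 and 802 without ΔE8 replicate 1 or 2. Opposite calls numbered 96 without FL replicate 3.

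Of the 25 measured histone genes, 10 had a more positive change with the transgene and 1 a more negative one. H4C14 measured 47.5, 42.2 and 52 CPM in siNT, 19.9, 17.7 and 12.4 in FL, 65.1, 67 and 69.2 in siTAF5 and 41.9, 40.7 and 46.1 in ΔE8. Its FL libraries were the lowest of all, and the interaction was 0.83 on the log2 scale (edgeR adjusted p = 4.37e-04). Among 26 p53 targets, 1 had a more positive and 11 a more negative change with the transgene. TP53I3, a p53-induced oxidoreductase gene, measured 2.19, 2.13 and 2.05 CPM in siNT, 4.07, 3.8 and 4.41 in FL, 5.85, 5.17 and 6.09 in siTAF5 and 5.37, 5.17 and 5.44 in ΔE8. The siTAF5 and ΔE8 libraries overlapped whereas FL stood above siNT, so the log2 change was 1.42 in one pair and 0.38 in the other (interaction -1.05, edgeR adjusted p = 4.10e-05). BAX, an activator of apoptosis, measured 42.6, 42.1 and 40.7 CPM in siNT, 62.9, 66.1 and 67.6 in FL, 55.1, 52.7 and 57.9 in siTAF5 and 55.4, 59.3 and 58.3 in ΔE8. It rose in siTAF5 against siNT and fell in ΔE8 against FL (interaction -0.58, edgeR adjusted p = 3.22e-06).

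Among the 32 measured splicing factors, 16 had a more negative change with the transgene and 0 a more positive one. In siTAF5 against siNT 9 were higher and 10 lower, and in ΔE8 against FL 1 and 23. HNRNPM, an RNA-binding splicing regulator, measured 332.8, 348.7 and 335.5 CPM in siNT, 587.4, 573.2 and 605.0 in FL, 396.9, 384.9 and 392.0 in siTAF5 and 522.6, 512.2 and 525.3 in ΔE8. It rose in the first pair and fell in the second (interaction -0.39, edgeR adjusted p = 2.37e-06). Of 29 RNA polymerase II and general factors, 10 had more negative and 1 more positive changes. Of 16 host genes of small nucleolar RNAs, 9 had more positive and 0 more negative ones, and of 76 cytosolic ribosomal proteins 9 and 0. Over all genes tested 12.2% had a called interaction, 5.28% more positive and 6.96% more negative.

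SCARA5, a ferritin receptor gene, measured 26.9, 25 and 24.7 CPM in siNT, 10.9, 10.5 and 9.77 in FL, 16.5, 15 and 14.8 in siTAF5 and 12.7, 10.9 and 11 in ΔE8. It fell in siTAF5 against siNT and was not called in ΔE8 against FL (interaction 0.88, edgeR adjusted p = 5.00e-06). ATP1B2, a sodium pump subunit, measured 15.4, 14.1 and 14.6 CPM in siNT, 6.18, 6.26 and 5.59 in FL, 12, 12.1 and 11.3 in siTAF5 and 8.71, 9.12 and 6.31 in ΔE8. It fell by 0.31 on the log2 scale in the first pair and rose by 0.44 in the second. The potassium channel gene KCNJ4 likewise changed by -0.28 and 0.42, PCK1, a gluconeogenic enzyme, by -0.32 and 0.42, the phosphatase PTP4A3 by -0.22 and 0.40 and TNXB, a matrix protein, by -0.34 and 0.27. TIGD1, derived from a transposable element, went the other way, by 0.29 and -0.34. SYNPO, an actin-associated protein gene, had log2 changes of -0.20, which was not called, and 0.62. DHRS2, a reductase gene, measured 4.77, 4.83 and 4.79 CPM in siNT, 10.5, 10.2 and 10.5 in FL, 13.2, 14.3 and 13.2 in siTAF5 and 17.1, 15.9 and 17 in ΔE8 and rose in both pairs, by 1.51 and 0.68.

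**Figure D5:**
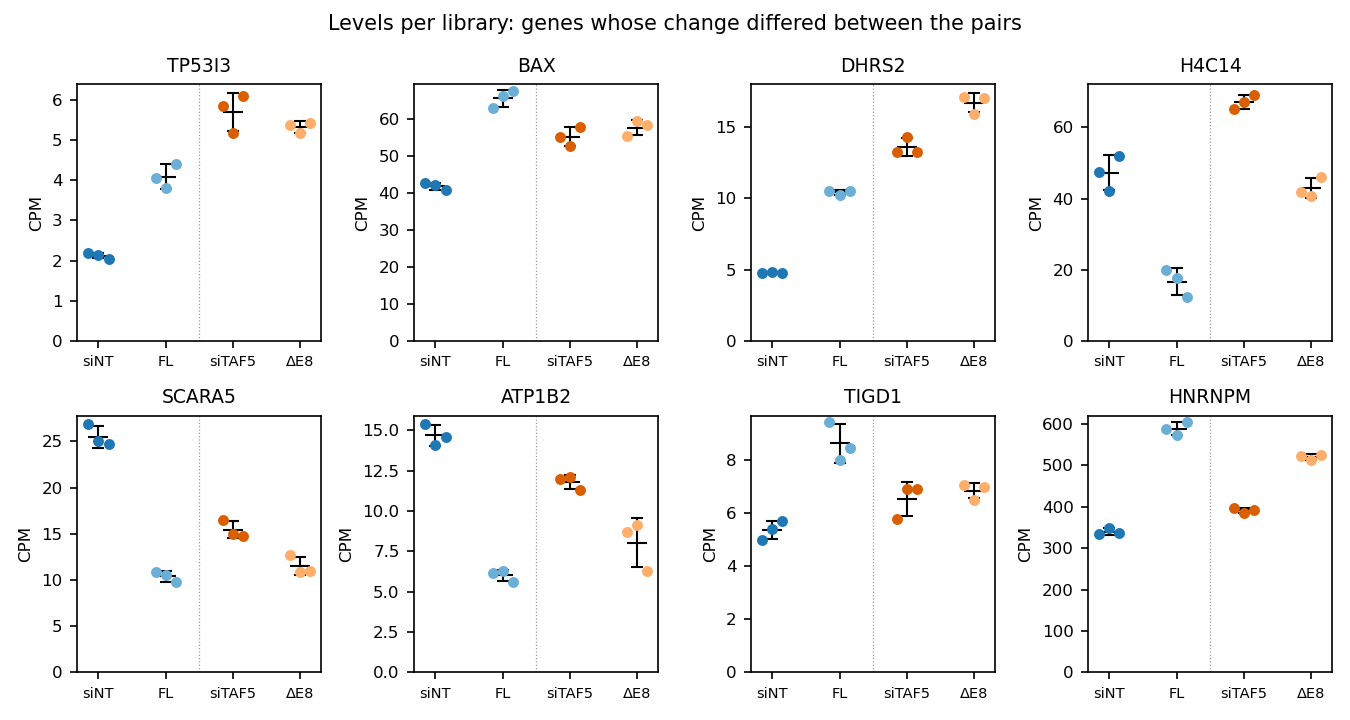
CPM in each library (points, linear axes from 0) with mean and SD of 3 libraries (black) for 8 genes with a called interaction; groups with exon 8-containing TAF5 stand left of the dotted line. TP53I3 and BAX differ most on the left, where FL stands above siNT, and H4C14, SCARA5 and ATP1B2 have their lowest library in FL.

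Since TFIID binds core promoters, promoters of genes that moved together were read for short motifs, as a description without a test. RefSeq promoters (GRCh38.p14, 250 bases before to 50 after the gene start) were matched by symbol for 12590 of 19409 symbols tested (64.9%), so the shares hold for the matched genes alone. Where several starts were listed, the first was used. A TATA match, TATAAA or TATATA beginning 45 to 15 bases before the start on the gene strand, was found in 2.49% of promoters of genes tested and 3.61% of all RefSeq promoters. The share was 3.92% of genes called higher in both pairs and 2.19% of those called lower. Without histone genes it was 3.08% of those called higher (59 of 1917). Of the 42 genes called higher in both pairs that also rose at least 2-fold, 11 had a match, 10 of them histone genes. Of the 30 that fell at least 2-fold, 2 had one (6.67%). By list the share was 66.7% for histone genes (16 of 24) and 28.6% for small nucleolar RNA hosts (4 of 14). It was 16.7% for translation factors (2 of 12) and 8.2% for ribosomal proteins (5 of 61). Lists that fell thus also exceeded the share over all genes tested, though on few genes.

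A pyrimidine match, which is TTTCT or TCTTT or CTTTC lying within 5 bases before to 10 after the start on the gene strand, was chosen after the values were seen. It was found in 4.4% of promoters of genes tested and 4.72% of all RefSeq promoters. The share was 7.01% of genes called lower in both pairs and 3.3% of those called higher. Lists that mostly fell had 49.2% for ribosomal proteins (30 of 61), 50% for translation factors (6 of 12) and 57.1% for small nucleolar RNA hosts (8 of 14). The translation factor list was drawn from the TOP class, which is defined by such a start, so its share reflects that choice. For histone genes, which mostly rose, the share was 29.2% (7 of 24). Among genes called in both pairs and changed at least 2-fold it was 20% of the lower and 16.7% of the higher ones. Without the ribosomal protein, translation factor and host gene lists, 5.45% of the genes called lower in both pairs had it. The GC box GGGCGG, on either strand, was found in 68.9% of promoters of genes tested, 44.6% of all RefSeq promoters, 73.4% of genes called higher in both pairs and 70.6% of those called lower.

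The promoters of H2AC18, ANXA1 and SNHG3 show both kinds of match, in capitals. H2AC18 lies at chr1:149842701-149843000 on the - strand and holds a TATA match and a pyrimidine match. ANXA1 lies at chr9:73151615-73151914 on the + strand and is the one gene with a TATA match among the 10 lower genes named by the main effect rule. In both the TATA match begins 31 bases before the start. SNHG3 lies at chr1:28505693-28505992 on the + strand and holds a pyrimidine match at its RefSeq start. The gene as counted starts at 28505980, downstream of that match.
H2AC18: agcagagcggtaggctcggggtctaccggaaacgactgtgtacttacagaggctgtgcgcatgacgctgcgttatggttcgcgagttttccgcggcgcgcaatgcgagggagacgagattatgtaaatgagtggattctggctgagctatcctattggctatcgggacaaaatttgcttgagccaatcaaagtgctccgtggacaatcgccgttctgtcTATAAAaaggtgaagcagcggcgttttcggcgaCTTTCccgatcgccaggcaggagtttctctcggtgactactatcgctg
ANXA1: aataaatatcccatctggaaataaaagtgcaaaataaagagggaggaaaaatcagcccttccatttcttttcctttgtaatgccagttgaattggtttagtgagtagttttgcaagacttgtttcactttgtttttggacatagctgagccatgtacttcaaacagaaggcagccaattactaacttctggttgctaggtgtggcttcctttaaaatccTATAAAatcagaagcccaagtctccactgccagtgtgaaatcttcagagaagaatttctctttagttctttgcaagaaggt
SNHG3: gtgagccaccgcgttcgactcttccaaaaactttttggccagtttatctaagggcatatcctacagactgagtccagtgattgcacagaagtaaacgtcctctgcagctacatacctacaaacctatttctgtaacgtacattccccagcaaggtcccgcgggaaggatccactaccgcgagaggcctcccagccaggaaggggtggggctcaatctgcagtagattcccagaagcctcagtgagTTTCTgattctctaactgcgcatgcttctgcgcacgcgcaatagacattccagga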

How the data were processed

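Poly(A) RNA of 12 libraries, 3 for each of 4 groups taken from the sample titles, was analysed from a deposited table. The deposited values are expected counts, estimated reads per gene, labelled as raw and taken as not normalized. Many are not whole and library totals differ, which alone does not show that they were not normalized. Per the submitters' processing notes cutadapt 1.18, STAR 2.7.0f, Partek 10.0.23.0531, DESeq2 and the build hg38 were used, with roles and order not given in the sources used here, nor the annotation and strand setting. The tests were planned for counts; the estimated counts were therefore rounded, and no total of a library moved by over 91.27.

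With R 4.3.3 and edgeR 4.0.16, genes were kept by filterByExpr (minimum count 10; 19424 of 32010 genes), libraries were scaled by TMM, and all 12 were fitted in 1 quasi-likelihood model with a mean per group. Tests of contrasts were two-sided, with p-values adjusted over all genes tested by Benjamini-Hochberg, and the test was checked on simulated counts. Depth was 41.8 to 62.5 M, and replicates differed by more than sampling noise (chi-square per degree of freedom 2.6 to 5.14). Without a spike-in, every change is relative to most genes. Stop positions are printed with 1 base taken off.

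Named genes were TAF5, then the 10 highest and 10 lowest by main effect log2 among genes called the same way in the main effect and both pairs, with a mean log2 CPM of 2 or more and no overlap within either pair; the 6 largest interactions among genes with opposite calls and the 6 largest among others; TFIID subunits; and in each of 32 lists up to 4 genes with the smallest main effect and 2 with the smallest interaction adjusted p. Genes without a name were skipped. One gene that the rule names is not reported here. Members and lists were chosen with earlier results of these data known. Alternatives were 2 other scalings, DESeq2 1.42.0, other count filters, a replicate block and leaving out each library.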

Additional observations from a re-analysis of the deposited data

Results flagged for a closer look

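The change on lack of exon 8-containing TAF5 differed between cells without and with a transgene for 2376 genes, by the edgeR test of the interaction itself. Values below are interaction log2, the change in ΔE8 against FL minus that in siTAF5 against siNT, with n = 3 libraries a group. TAF5, with 2.31, fell far more in siTAF5 against siNT. Histone genes that rose more with the transgene were H2AC18 (0.75), H1-2 (0.55), H2BC11 (0.62), H2BC12 (0.19), H2AC19 (0.48) and H4C14 (0.83), whereas H4C8 (-0.56) rose less. Falls were smaller with the transgene for SNHG3 (0.61), RAPGEF3 (0.63) and CRTAP (0.27). Rises were smaller with it for ZNF425 (-0.69), TLCD1 (-0.32), PSMG3-AS1 (-0.39), NEAT1 (-0.31), TP53I3 (-1.05) and DHRS2 (-0.82). Directions were opposite in the pairs, lower without and higher with the transgene, for ATP1B2 (0.75), PCK1 (0.74), KCNJ4 (0.70), PTP4A3 (0.62) and TNXB (0.60), and the reverse for TIGD1 (-0.63). SCARA5 and SYNPO, each called in a single pair, had more positive changes with the transgene: SCARA5 (0.88) and SYNPO (0.83). Among TFIID subunits the change was more negative with the transgene for TAF9B (-0.22), TAF12 (-0.21) and TAF13 (-0.29) and more positive for TAF4B (0.28). What lies behind these differences was not tested.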

How the results depend on the processing

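Counts of calls were recomputed under 18 alternatives. Main effect calls numbered 9651 with DESeq2, of which 9621 were shared with the 10570 reported, and genes called the same way in both pairs 4914. Leaving out each library in turn gave 4829 to 5055 higher and 5111 to 5376 lower genes by the main effect. It gave 721 to 1223 more negative interactions and 96 to 152 opposite calls; the cause was not tested. TAF7, not called, had a main effect log2 of -0.008 with upper-quartile scaling and between -0.012 and 0.021 with a library left out, and TAF10, not called, one between -0.0 and 0.062. With library totals as scaling the medians of all 32 lists were 0.03 to 0.031 higher, which for 9 lists was more than the spread between libraries. TBP (0.067, edgeR adjusted p = 0.0471), TAF4B (0.081, adjusted p = 0.0157) and TAF9 (0.072, adjusted p = 0.0224) were then called higher, as was TAF9 without FL replicate 3 (0.062, adjusted p = 0.033). The interferon-stimulated median was -0.046 without FL replicate 1 and the glycolysis and hypoxia median -0.061 without ΔE8 replicate 1. The 12 genes named for their interaction kept its direction and call under all 18 alternatives. Of the main effect calls, 49.0% were higher, and 57.3% with library totals as scaling. Whether equal replicate numbers pair the samples was not settled. Of 18 same-numbered pairs, 8 had deviations correlated above 0.1, and 7 of 12 samples correlated best with their own number. For same-numbered pairs r ran from -0.188 to 0.297, and for differently numbered ones from -0.291 to 0.185. With a replicate block there were 10735 main effect calls and 5620 genes called the same way in both pairs. Depth of 41.8 to 62.5 M counts limits low genes most.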
